A study of Homo sapiens with 12 samples.

Results

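The 10 mature miRNAs described here come from 8 hairpins: hsa-miR-638, hsa-miR-663a, hsa-miR-762, both arms of miR-1915 (hsa-miR-1915-3p and hsa-miR-1915-5p), hsa-miR-2861, hsa-miR-3960, hsa-miR-4466 and both arms of miR-4787 (hsa-miR-4787-5p and hsa-miR-4787-3p). The species prefix is left out from here on. They were selected by name, as every probe named for one of these hairpins, and make up 10 of the 2565 human miRNA probes on the array. The probes were measured on 12 single-colour 3D-Gene arrays of KYSE150 cells, an established line of oesophageal squamous cell carcinoma. Cells of the control group (n = 6) received no galectin-9, and cells of the other group (n = 6) received 100 nM galectin-9, a galactoside-binding lectin, for 6 h. Both groups were grown in the same low-serum medium, and total RNA was labelled with Cy5. Samples are numbered from 1 to 6 within a group. Nothing calls them separate cultures, and the spread behind each p-value may therefore be that of technical repeats. In such bulk RNA, fewer cells and less of a miRNA per cell cannot be told apart.

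A miRNA is cut from a hairpin transcript and guides Argonaute to messenger RNAs that pair with its seed, bases 2 to 8. Both arms of a hairpin can give a mature miRNA, named 5p and 3p. Probes differ in how they bind, so the brightness of different probes, given here as a percentile, is no comparison of the miRNAs' amounts. In mouse osteoblasts miR-2861 and miR-3960 are known from one locus and act on Hdac5 and Hoxa2. miR-663a is known for acting on JUNB and JUND, subunits of the transcription factor AP-1, and miR-1915-3p for acting on the survival factor BCL2.

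RefSeq (GRCh38.p14) gave a mature sequence for 9 of the 10 miRNAs, shown because the base composition is what the group has in common. Capitals mark the seed.
miR-638: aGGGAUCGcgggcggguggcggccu
miR-663a: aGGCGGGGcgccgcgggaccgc
miR-762: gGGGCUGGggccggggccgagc
miR-1915-3p: cCCCAGGGcgacgcggcggg
miR-1915-5p: aCCUUGCCuugcugcccgggcc
miR-2861: gGGGCCUGgcggugggcgg
miR-4466: gGGUGCGGgccggcgggg
miR-4787-5p: gCGGGGGUggcggcggcauccc
miR-4787-3p: gAUGCGCCgcccacugccccgcgc

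For miR-3960 the hairpin of 91 bases is shown, at chr9:127785833-127785923 on the plus strand. Capitals mark the motif GGCGG, 5 times without overlap.
MIR3960: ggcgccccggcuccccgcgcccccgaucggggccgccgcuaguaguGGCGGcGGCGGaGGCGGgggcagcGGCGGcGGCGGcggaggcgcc

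The loci were spread over 7 chromosomes of GRCh38.p14. miR-638 (MIMAT0003308) is at chr19:10718419-10718443 on the plus strand, within DNM2, the gene of the endocytic GTPase dynamin 2. miR-762 (MIMAT0010313) is at chr16:30893951-30893972, within BCL7C and MIR762HG, and miR-4466 (MIMAT0018993) at chr6:156779710-156779727, within ARID1B. BCL7C and ARID1B encode subunits of SWI/SNF chromatin remodelling complexes. The arms miR-4787-5p (MIMAT0019956, chr3:50675093-50675114) and miR-4787-3p (MIMAT0019957, chr3:50675130-50675153) lie within DOCK3, a gene for an activator of Rac. miR-663a (MIMAT0003326, chr20:26208243-26208264) lies within the long non-coding RNA gene MIR663AHG. miR-1915-3p (MIMAT0007892, chr10:21496576-21496595) and miR-1915-5p (MIMAT0007891, chr10:21496609-21496630) lie within MIR1915HG. Mature miR-2861 (MIMAT0013802, chr9:127785971-127785989) starts 47 bases after the MIR3960 hairpin ends. The MIR2861 gene, at chr9:127785918-127786007, starts before that hairpin ends, so the genes overlap. No other gene spans either. The gene table gives spans without exons, so exon or intron is not stated. Strands of miRNA and gene were not compared, so lying within a gene does not mean being transcribed with it.

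The miRNAs fitted the description as GC-rich. The G and C share of the 9 mature sequences ran from 72.7% in miR-1915-5p to 94.4% in miR-4466, against a median of 52.2% over the 2253 probes that name 1 miRNA and had a RefSeq sequence. They differed in which base led. miR-4466 had 72.2% G and 22.2% C, miR-2861 68.4% G and 21.1% C, and miR-762 63.6% G and 27.3% C. miR-638 had 56% G and 24% C, and miR-4787-5p and miR-663a each 54.5% G, with 31.8% and 36.4% C. miR-1915-3p was more even, with 50% G and 40% C. miR-4787-3p (29.2% G, 54.2% C) and miR-1915-5p (27.3% G, 45.5% C) held more C than G. The motif GGCGG, searched on the mature strand only, was found in 6 of the 9 sequences and in 2.53% of the 2253, which include these 9. The 3 of the 9 without it were miR-762, miR-1915-5p and miR-4787-3p. Of the 116 other probes with a G and C share of at least 75%, 91 lacked the motif and the rest held it.

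The label of bright probes held for 7 of the 10. Brightness was taken as the percentile of raw intensity minus background among all human miRNA probes of an array. miR-3960 lay between percentiles 98.4 and 98.7 on the 12 arrays, at ranks 34 to 43 of 2565. miR-4787-5p lay between 96.3 and 97.2, miR-762 between 95.8 and 96.8, miR-4466 between 93.8 and 94.97, and miR-2861 between 93.1 and 94.5. miR-638 lay between 92.2 and 93.7 and miR-663a between 87.0 and 89.6. miR-1915-3p was intermediate, between 62.7 and 76.2. miR-1915-5p, between 33.1 and 59.1, and miR-4787-3p, between 21.4 and 59.6, were dim. The order from miR-3960 through miR-4787-5p to miR-762 was the same on all 12 arrays, as were the places of miR-638, miR-663a and miR-1915-3p. miR-4466 and miR-2861 exchanged places, and so did miR-1915-5p and miR-4787-3p.

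The 10 probes together gave 0.622% to 0.915% of all listed human miRNA signal on an array, with a median of 0.751%. miR-3960 made up 57.3% to 62.0% of that sum. These are shares of signal and not of molecules.

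Across the other probes, median brightness rose with the G and C share up to 70% and was uneven above it. The median percentile was 17.3 for 399 probes with a share below 40%, 36.4 for 524 from 40% to below 50%, 52.1 for 681 from 50% to below 60%, and 69.0 for 421 from 60% to below 70%. It was 77.0 for 103 from 70% to below 75%, 72.4 for 55 from 75% to below 80%, and 85.7 for 61 from 80%. For the 116 other probes with a share of at least 75% it was 82.6, with quartiles of 46.2 and 91.9. This class was split after its values were seen. The 79 probes with more G than C had a median percentile of 90.0, and 63 of them were detected on all arrays. The 37 with no more G than C had a median of 38.7, with 9 of 37 detected on all arrays. Among probes with no more G than C the median rose from 18.7 (184 probes, below 40%) to 66.0 (185 probes, 60% to below 70%). It then fell to 56.7 (47 probes, below 75%), 45.8 (18 probes, below 80%) and 30.1 (19 probes, from 80%). Among the described miRNAs the 7 with more G than C ranged from a mean percentile of 70.2 to 96.7, and the 2 with more C had 49.4 and 37.7. These are descriptions of probes, which share arrays and hybridisation conditions and are not replicates.

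**Figure D1:**
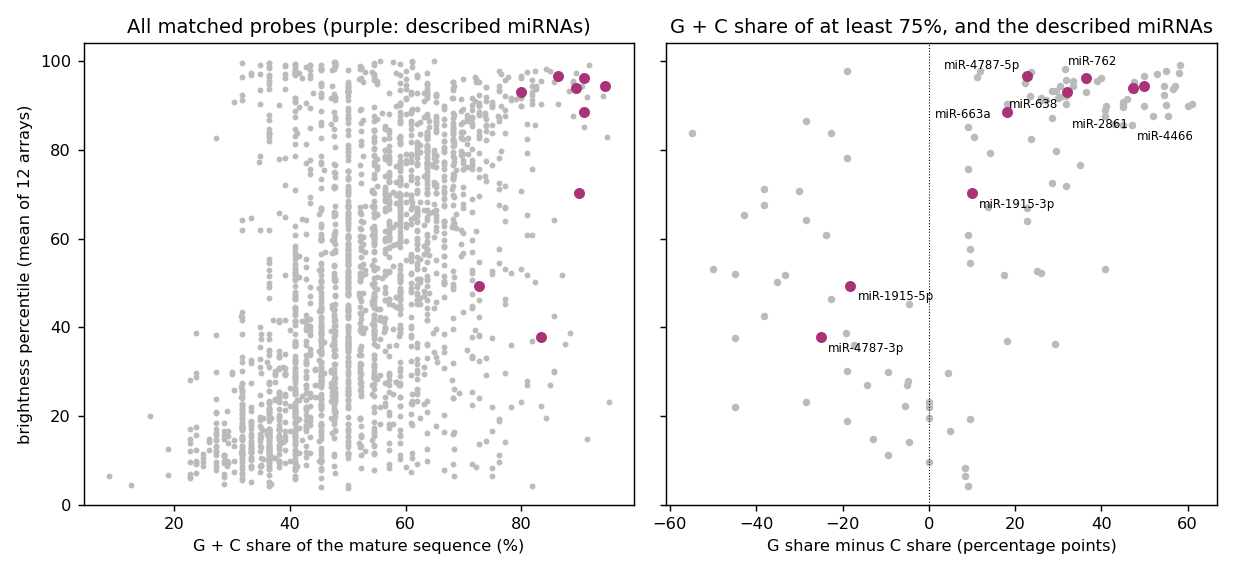
Brightness percentile (mean over 12 arrays, y axis) of each miRNA probe against the G and C share of its mature sequence (%, left) and, for probes with a share of at least 75% plus the 9 described miRNAs, against G share minus C share (percentage points, right). Grey points are other miRNAs and purple points the described ones; to the right of 0, with more G than C, the 79 other probes have a median percentile of 90.0, and to the left or at 0 the 37 others have 38.7.

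None of the 10 miRNAs passed the test for a difference between galectin-9 and control cells. The fit used quantile-normalised log2 intensities, in which an undetected miRNA takes the lowest detected value of its array, called the floor here. All 10 passed the filter of detection on at least 6 of 12 arrays. With limma and Benjamini-Hochberg adjustment over 1734 tested probes, 0 of 10 had an adjusted p under 0.05, against 0.173% of all tested probes (3 of 1734, all higher; with the pairs of equal number as a block, 1). At an unadjusted p under 0.05, 1 of 10 passed, against 12.8% of all tested probes. The groups were free of overlap for 0 of 10, against 1.44% of all tested probes. The fitted difference was below 0 for 8 of the 10, with a median of -0.15, while 63.3% of all tested probes were below 0, with a median of -0.070. Among the 8 miRNAs detected on all arrays, 6 were below 0, with a median of -0.12. Of the 891 probes so detected, 55.2% were below 0, with a median of -0.024. Control arrays always had odd and galectin-9 arrays even positions on a slide, so position parity and treatment cannot be told apart in any of these values.

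**Figure D2:**
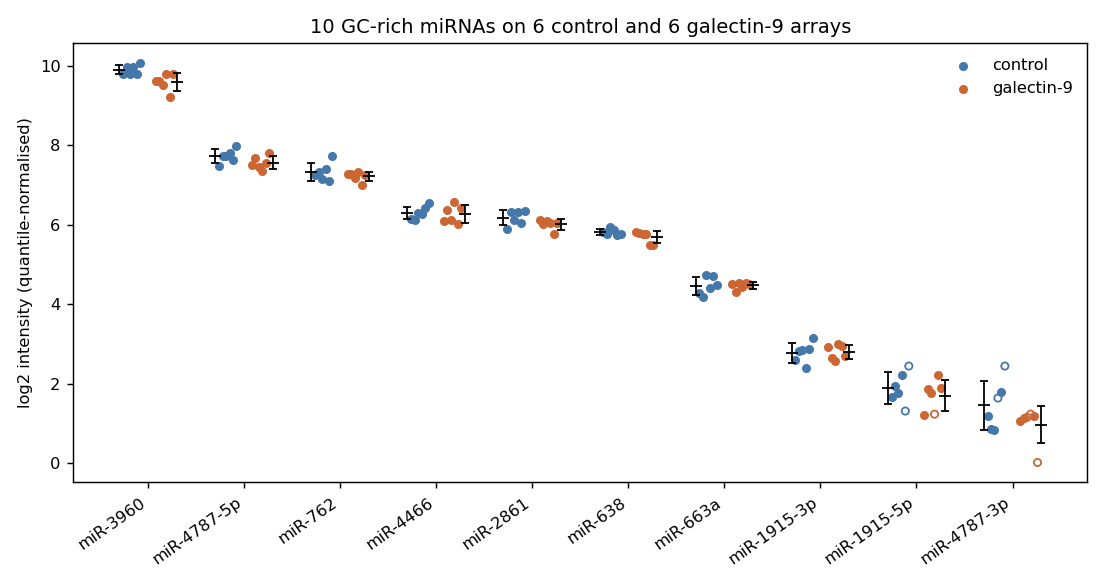
Quantile-normalised log2 intensity (y axis) of each of the 10 miRNAs (x axis, brightest on the left) on 6 control arrays (blue) and 6 galectin-9 arrays (orange). Open circles are values below the detection limit, set to the array's floor, and bars show mean ± SD; the groups overlap for all 10 miRNAs.

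miR-3960 (MIMAT0019337), the brightest, was the only one under an unadjusted p of 0.05. Its intensity above background was 694 to 985 arbitrary units on control arrays (median 956) and 675 to 1006 on galectin-9 arrays (median 811). The ranges overlapped, and the highest single value was on a galectin-9 array, replicate 4. After quantile normalisation the normalised log2 level averaged 9.90 ± 0.11 in the control group and 9.60 ± 0.22 with galectin-9 (SD, 6 arrays each). The control values were 9.80 in replicates 1, 3 and 5, 9.96 in replicates 2 and 4, and 10.06 in replicate 6. The galectin-9 values were 9.62 in replicates 1 and 2, 9.52 in replicate 3, 9.80 in replicates 4 and 6, and 9.20 in replicate 5. The groups met at 9.80, a value that 3 control and 2 galectin-9 arrays share because miRNAs of the same rank receive the same value.

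The log2 difference of miR-3960 was -0.30 (SE 0.11, 95% interval -0.54 to -0.057), with an unadjusted p of 0.0196 and a limma adjusted p of 0.301. An exact permutation test over the 12 arrays gave a two-sided p of 0.0216, not adjusted over probes. It was lower with galectin-9 in 6 of 6 pairs of equal replicate number, and by -0.26, -0.22 and -0.43 within slides 1, 2 and 3. The rank was 34 to 36 on control arrays and 36 to 43 on galectin-9 arrays, and each place corresponds to 1 normalised value. When arrays were instead shifted to an equal median, which leaves bright probes free of their rank, the difference was -0.18 (95% interval -0.46 to 0.090, limma adjusted p = 0.633). It was then -0.11, -0.0097 and -0.43 within slides 1, 2 and 3. Without control replicate 6, the array with the fewest detected probes (934), the median-scaled difference was -0.088. The quantile-normalised difference without that array was -0.27 (limma adjusted p = 0.417). With the authors' globally normalised column the difference was 0.057 (limma adjusted p = 0.870), where the median of all tested probes was 0.23.

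**Figure D3:**
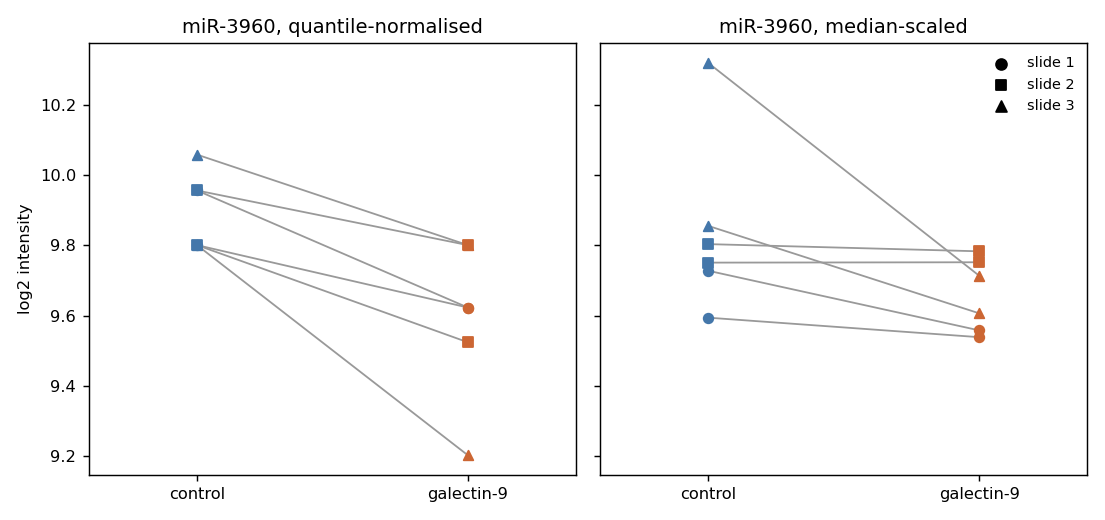
Log2 intensity (y axis) of miR-3960 on control and galectin-9 arrays, with a line for each pair of equal replicate number and a marker shape for the slide, after quantile normalisation (left) and median scaling (right). On the left all 6 lines fall and several arrays share the value 9.80; on the right control replicate 6 of slide 3 stands above the other controls and the lines of slide 2 are nearly flat.

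The other member of the chromosome 9 locus, miR-2861, showed a smaller difference. Its intensity was 47.7 to 88.1 units in control (median 71.2) and 53.5 to 81.4 with galectin-9 (median 66.4). The normalised log2 level averaged 6.17 ± 0.19 in the control group and 6.01 ± 0.13 with galectin-9 (SD, 6 arrays each). The difference of -0.16 (SE 0.11, 95% interval -0.39 to 0.071) did not pass (limma adjusted p = 0.529), with 5 of 6 pairs lower. Galectin-9 replicate 5 was the lowest of its group, at 5.75, on the same array that was lowest for miR-3960.

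miR-4787-5p, the arm with more G, had 149 to 233 units in control (median 208) and 184 to 218 with galectin-9 (median 195). Its log2 difference was -0.17 (SE 0.11, 95% interval -0.40 to 0.072, limma adjusted p = 0.529), within the spread of 0.17 SD in each group. The within-slide differences were -0.0081, -0.37 and -0.12. The other arm, miR-4787-3p, was near the detection limit. It was detected on 4 of 6 control and 3 of 6 galectin-9 arrays, and its intensity never exceeded 2.01 times the limit of its array. Its log2 difference of -0.49 (95% interval -1.12 to 0.14, limma adjusted p = 0.479) rested on floors. The highest control value, 2.44, was the floor of control replicate 6, and the lowest galectin-9 value, 0.015, the floor of galectin-9 replicate 6. With 1 floor common to all arrays every array was at that floor, which leaves no difference, and without slide 3 it was 0.020.

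miR-762 had 102 to 185 units in control (median 158) and 124 to 189 with galectin-9 (median 151). Its normalised log2 level averaged 7.33 ± 0.22 in the control group and 7.22 ± 0.11 with galectin-9 (SD, 6 arrays each), a difference of -0.10 (95% interval -0.35 to 0.14, limma adjusted p = 0.733). The highest value, 7.72, was in control replicate 6, and the remaining controls (7.11 to 7.40) overlapped the galectin-9 arrays (7.01 to 7.32). The difference was -0.024 without control replicate 6 and -0.014 without slide 3. miR-4466 had 65.7 to 85.1 units in control (median 76.2) and 64.2 to 106 with galectin-9 (median 78.2). Its log2 difference was -0.031 (95% interval -0.29 to 0.23, limma adjusted p = 0.929), with 4 of 6 pairs lower.

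miR-638 had the smallest within-group SD of the 8 miRNAs detected on all arrays after quantile normalisation and after median scaling, though not without normalisation. Its intensity was 40.9 to 66.9 units in control (median 57.0) and 40.9 to 65.5 with galectin-9 (median 55.7). The normalised log2 level averaged 5.82 ± 0.079 in the control group and 5.68 ± 0.16 with galectin-9 (SD, 6 arrays each), a difference of -0.13 (95% interval -0.33 to 0.069, limma adjusted p = 0.566). Galectin-9 replicates 5 and 6, both on slide 3, had 5.48 and 5.49, while the remaining galectin-9 arrays lay between 5.77 and 5.80. Within slides 1, 2 and 3 the difference was 0.0096, -0.14 and -0.27. Its within-group SD of 0.12 after quantile normalisation compared with a median of 0.18 over the 50 probes nearest in brightness. Of these 50, 11 had a lower SD. For the rest of the 8 miRNAs that count ran from 11 (miR-1915-3p) to 37 (miR-762).

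miR-663a had the difference closest to 0. Its intensity was 16.97 to 28.5 units in control (median 19.8) and 19.5 to 30.3 with galectin-9 (median 21.3). The normalised log2 level averaged 4.47 ± 0.23 in the control group and 4.47 ± 0.090 with galectin-9 (SD, 6 arrays each), and the 95% interval of the difference ran from -0.24 to 0.24 (limma adjusted p = 0.994). miR-1915-3p had 4.46 to 8.37 units in control (median 6.65) and 5.66 to 9.64 with galectin-9 (median 6.67). Its log2 difference was 0.022 (95% interval -0.26 to 0.31, limma adjusted p = 0.956). The other arm, miR-1915-5p, was detected on 4 control and 5 galectin-9 arrays. Its difference of -0.20 (95% interval -0.67 to 0.27, limma adjusted p = 0.733) includes floors of 1.31 and 2.44 in control replicates 5 and 6 and of 1.23 in galectin-9 replicate 4, and with 1 floor common to all arrays no difference was left.

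**Figure D4:**
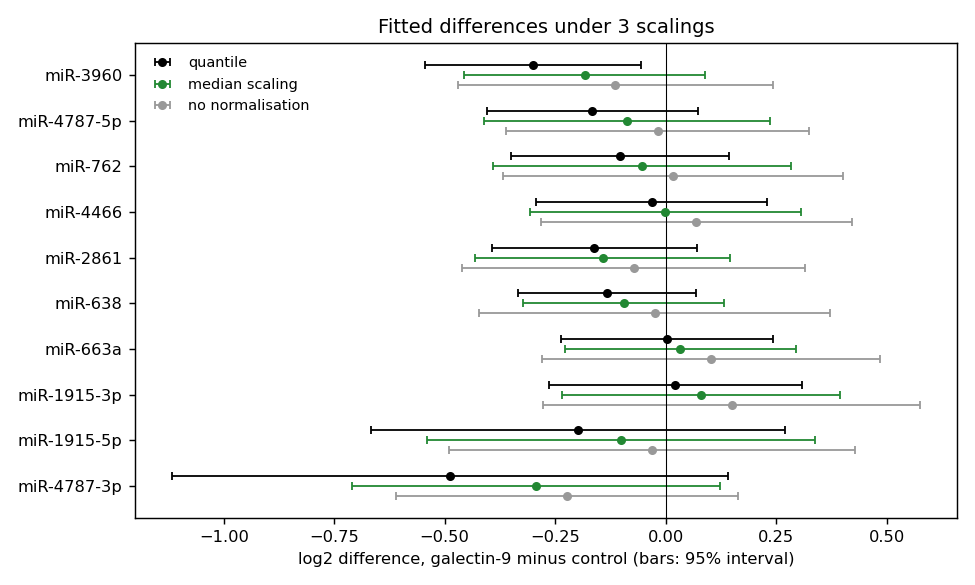
Fitted log2 difference, galectin-9 minus control (x axis), with 95% intervals, for the 10 miRNAs (y axis, brightest at the top) after quantile normalisation (black), median scaling (green) and no normalisation (grey). All intervals include 0 except that of miR-3960 after quantile normalisation (-0.54 to -0.057), and all points move to the right without normalisation.

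Intensities before normalisation were lower on slide 3. The mean intensity of miR-3960 over the 4 arrays of a slide was 925 units on slide 1, 916 on slide 2 and 767 on slide 3. For miR-638 the means were 60.8, 59.99 and 41.9 units, and for miR-2861 75.1, 74.0 and 56.7. The group means of miR-3960 were 903 units in control and 835 with galectin-9. Each slide held 2 control and 2 galectin-9 arrays.

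Array-to-array deviations of the 8 miRNAs detected on all arrays were, on balance, positively correlated. After subtracting each group's mean, Pearson's r across the 12 arrays had a median of 0.21 over 28 pairs after quantile normalisation and 0.39 after median scaling, while the median over all pairs of the 891 probes was 0.0042 and 0.036. The highest was 0.91, between miR-3960 and miR-762 after median scaling. These values share arrays and scaling, and they rest partly on control replicate 6. Without that array the medians were 0.13 and 0.26 over 11 arrays, and the value for miR-3960 and miR-762 after median scaling was 0.62. After quantile normalisation the neighbours miR-3960 and miR-2861 had 0.71 and miR-3960 with miR-762, on another chromosome, 0.74. Without control replicate 6 the quantile-normalised value for miR-3960 and miR-762 was higher, at 0.83.

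Among the remaining probes detected on all arrays, the one most like miR-3960 over the 12 arrays was miR-4497 (Pearson's r = 0.91), which was also the one most like miR-2861 (r = 0.88). For miR-762 it was miR-6886-3p (r = 0.92), for miR-638 miR-4763-3p (r = 0.90), for miR-4466 miR-4739 (r = 0.89), for miR-4787-5p miR-204-3p (r = 0.89), for miR-663a miR-21-3p (r = 0.79) and for miR-1915-3p miR-4711-3p (r = 0.77). Each is the highest of about 883 values, and after median scaling the most similar probe was another one for all of these but miR-663a.

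No seed was shared among the 9 mature sequences, but 4 of them share theirs with other probed miRNAs. They are shown because a shared seed gives pairing to the same sites. Capitals mark the seed.
miR-1908-5p, seed of miR-663a: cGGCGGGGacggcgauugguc
miR-6787-5p, seed of miR-663a: uGGCGGGGguagagcuggcugc
miR-4492, seed of miR-762: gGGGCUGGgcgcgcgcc
miR-4498, seed of miR-762: uGGGCUGGcagggcaagugcug
miR-5001-5p, seed of miR-762: aGGGCUGGacucagcggcggagcu
miR-675-5p, seed of miR-4466: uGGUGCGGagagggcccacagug
miR-6764-5p, seed of miR-1915-3p: uCCCAGGGucuggucagaguug

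All 7 were detected on all 12 arrays and none passed the limma threshold. miR-675-5p, from the imprinted non-coding RNA H19, had a log2 difference of -0.35 (adjusted p = 0.301), and miR-6787-5p one of -0.26 (adjusted p = 0.301). miR-4492 differed by -0.18 (adjusted p = 0.371), miR-1908-5p by -0.11 (adjusted p = 0.632), miR-5001-5p by 0.047 (adjusted p = 0.886), miR-4498 by 0.098 (adjusted p = 0.792) and miR-6764-5p by 0.23 (adjusted p = 0.641).

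Runs of bases at any place in the sequence, the seed included, were also compared. They are of interest because a probe may bind related sequences. Among the 9 mature sequences the longest shared run was 10 bases, between miR-4787-5p and miR-638, in capitals here.
miR-4787-5p: gcggGGGUGGCGGCggcauccc
miR-638: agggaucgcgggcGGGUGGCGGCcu
With the other probed miRNAs that had a RefSeq sequence, the longest shared run was 11 bases. It was found for miR-638 with miR-4707-5p and for miR-4787-3p with miR-324-3p. Capitals mark the run.
miR-4707-5p: gccccggCGCGGGCGGGUucugg
miR-324-3p: CCCACUGCCCCaggugcugcugg
miR-4707-5p was detected on 10 arrays and miR-324-3p on 12. For miR-762 the longest run was 10 bases, with miR-5787, miR-6085 and miR-6813-5p. For miR-1915-3p it was 9 bases with miR-6724-5p, for miR-4466 9 with miR-4746-3p and for miR-1915-5p 9 with let-7i-3p and miR-1199-5p. For miR-4787-5p 3 miRNAs shared 9 bases, for miR-663a 4 shared 9, and for miR-2861 6 shared 8. Cross-hybridisation between probes was not tested.

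A comparison list of 65 other miRNAs was set by name, as mostly GC-rich. Of its 64 tested members, 59 had a sequence, with a median G and C share of 78.3%, but 4 were below 65%, the lowest being miR-8063 at 50%. In this list 0 passed in either direction, and 15 of 64 had an unadjusted p under 0.05, beside 12.8% of all tested probes. Their differences were below 0 for 50 of 64, with a median of -0.12, beside 63.3% and -0.070 for all tested probes. Of the 96 tested probes outside the 10 miRNAs with a G and C share of at least 75%, 77 were below 0. Their median was -0.12, and 0 passed. Many of these 96 are also on the list, so the counts for the list and for this set overlap. After median scaling these counts were 45 of 64 and 68 of 96, beside 51.4% of all tested probes, and without normalisation 37 of 64 and 56 of 96, beside 38.4%. With the authors' global column, which moves the median of all tested probes to 0.23, they were 4 of 64 and 10 of 96, beside 14.7%, and the medians were 0.14 and 0.16. The brightest of the list were miR-6089 (log2 difference -0.36, adjusted p = 0.370), miR-7704 (-0.22, adjusted p = 0.445) and miR-5787 (-0.012, adjusted p = 0.966). The lowest differences were -0.64 for miR-1225-5p, detected on 10 arrays, -0.41 for miR-4707-5p and -0.36 for miR-6125 (adjusted p = 0.257). The highest were 0.75 for miR-6087, whose control SD was 0.84, 0.26 for miR-6716-5p and 0.15 for miR-4442.

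Of 6 markers of squamous and other epithelium, miR-205-5p (mean percentile 99.6), miR-200c-3p (99.2), miR-31-5p (98.4), miR-141-3p (97.3) and miR-203a-3p (91.8) were detected on all arrays, and miR-944 (61.9) on 11. Of 13 markers of other cell types, miR-126-3p of endothelium (92.0) and miR-486-5p of blood (70.9) were detected on all 12 arrays, and the blood markers miR-142-3p (61.9) and miR-150-5p (58.3) on 11. The remaining 9 were detected on 0 (miR-1-3p) to 8 arrays. Detected probes ranged from 934 to 2045 per array, and the number of arrays limits the precision.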

How the data were processed

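Raw Cy5 intensity, background-subtracted intensity and globally normalised intensity per spot are columns of the deposited array files, per the file headers. Checked on the files, the authors' background is the average of 320 blank spots without their top and bottom 5%, listed values exceed it by 2 SD of those blanks, and the global column has a median of 25. The deposited series table holds linear intensities of 891 probes with nearly equal sorted values in every column (median 12.3). The sources used here name no scanner or software.

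Here, raw intensity minus background was quantile-normalised over 2565 human miRNA probes, undetected values were set to the array's lowest detected value, log2 was taken, and probes detected on at least 6 of 12 arrays were tested with limma 3.58.1 in R 4.3.3 (two-sided, Benjamini-Hochberg, threshold 0.05). The 6 human miRNA spots marked as not good were left out of the fit and counted as not detected. The fit was tested on simulated data with independent normal values, without floors, tied ranks or slide effects. That test cannot show how the fit behaves on arrays that have these. Slides were read from a code that 4 files share. Equal replicate numbers sit side by side on a slide. They were taken as pairs because their deviations correlated from 0.171 to 0.527 in 6 of 6 pairs. The highest value between unequal numbers was below that of the pair for every replicate but number 2, at 0.208 against 0.205. For replicate 4 it was 0.181 against 0.216, so the correlations hardly set these pairs apart. Named beside the 10 miRNAs are the 3 largest, 3 smallest and 3 brightest of the comparison list, the probe most like each miRNA, and those sharing the longest runs. Members, lists and tests were chosen with earlier results of these data known. Sequences are RefSeq's.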

Additional observations from a re-analysis of the deposited data

Results flagged for a closer look

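In 3 of the 20 sets of 6 arrays examined (10 miRNAs in each group), the lowest array stood apart from the rest. For independent normal values about 1 in 20 would. The sets here share arrays and hold tied ranks and floors, so that rate need not apply to them. For miR-2861, galectin-9 replicate 5 had a log2 intensity of 5.75, with the next at 6.01 and the highest at 6.11. For miR-663a, galectin-9 replicate 2 had 4.30, with the next at 4.44 and the highest at 4.53. For miR-4787-3p, galectin-9 replicate 6 had 0.015, with the next at 1.07, but this array did not detect the miRNA and the value is its floor.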

How the results depend on the processing

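None of the miRNAs passed in any of 25 alternative fits, and the lowest adjusted p was 0.173. In the authors' series table and among probes detected on all arrays only 8 of the 10 could be fitted, without miR-1915-5p and miR-4787-3p. The count of called probes over the whole table was 3, and 19 with normexp, 9 in the authors' series table, with a common floor and among probes detected on all 12 arrays, 5 with the slide as a block, 1 with the replicate block, and 0 without slide 1, 2 or 3. Leaving out single arrays gave 2 to 5. The block on pairs of equal number (replicate block) changed no call of the 10 miRNAs. With the authors' global normalisation the differences turned to 0.14 for miR-1915-5p, 0.098 for miR-2861, 0.057 for miR-3960, 0.24 for miR-4466, 0.15 for miR-4787-5p, 0.15 for miR-638 and 0.19 for miR-762. This scaling moves the median of all tested probes to 0.23, so a sign there is no change relative to other probes. Without normalisation (median 0.063) miR-4466 turned to 0.069 and miR-762 to 0.016. With normexp miR-663a turned to -0.0018. Without slide 1 miR-663a turned to -0.083, without slide 2 miR-1915-3p to -0.053, and without slide 3 miR-4466 to 0.085 and miR-4787-3p to 0.020. Leaving out single arrays moved miR-1915-3p from -0.056 to 0.094, miR-4466 from -0.094 to 0.019 and miR-663a from -0.055 to 0.057. The cause was not tested. The median brightness percentile of the 10 was 93.5, and 83.1 for the 8 ranked among probes detected on all arrays. Exactly 1 of the 10 lay below 0 with the global column, a count added after the data were seen, as were the values without control replicate 6. Dim probes such as miR-4787-3p and miR-1915-5p are limited by the detection limit.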
